A study of Schizosaccharomyces japonicus with 6 samples.

Results

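The transcriptomes of a pair of mutants of the fission yeast Schizosaccharomyces japonicus, pab2Δ and clr4-1, were set directly against each other, without wild type (WT) as the reference. All genes whose FPKM averaged 1 or more over the 4 mutant libraries were included, which gave 4901 of the 5272 genes in the table. FPKM is a level corrected for the length of a gene and for the number of fragments sequenced in a library. Of the 371 genes below the minimum, 195 were listed at 0 in all 4 mutant libraries. Each strain was represented by 2 libraries, described as biological replicates, made with a strand-specific protocol from total RNA of whole vegetative cells in mid-log phase, and all cultures were grown in YES, a rich medium, at 30°C. In pab2Δ the whole gene was replaced by standard gene replacement. clr4-1 is a temperature-sensitive allele with an amino acid substitution and was isolated after random mutagenesis of clr4 by PCR together with a natMX6 drug marker. How much Clr4 activity it kept at 30°C was not measured here. WT was strain NIG5572, whose 2 libraries served here to estimate the spread and to show where WT lay. The pab2Δ columns of the table carry no replicate number and are called the first and second column here. The labels do not give the mating types of the sequenced strains. In bulk RNA, a change in every cell and a change in the share of some cells cannot be told apart.

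Pab2 is a nuclear protein that binds the poly(A) tail of RNA. In the related yeast Schizosaccharomyces pombe it acts with the RNA-binding protein Mmi1, the zinc finger protein Red1 and the nuclear exosome, an RNA-degrading complex, to remove transcripts of meiotic genes while cells divide by mitosis. Clr4 is the enzyme that methylates lysine 9 of histone H3, the mark on which heterochromatin, the silent chromatin of centromeres, telomeres and transposons, is built. A direct comparison therefore asks which transcripts distinguish cells without the RNA-binding protein from cells with a mutated histone methyltransferase.

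Throughout, a log2 difference is pab2Δ minus clr4-1 on the log2(FPKM + 1) scale after each library was centred on its median gene, its SE is the standard error, and adjusted p-values are from limma with Benjamini-Hochberg adjustment over all 4901 genes. Adding 1 understates differences of genes near or below 1 FPKM. Genes were called higher or lower at an adjusted p under 0.05. The gene deleted in pab2Δ was examined first. pab2 (SJAG_04601) was listed at 0 FPKM in both pab2Δ libraries and reached 161 and 174 FPKM in the clr4-1 libraries, with 145 and 142 FPKM in those of WT, so the libraries matched their label (adjusted p = 1.06e-07). The substitution in clr4-1 cannot be read from a level. The level of clr4 itself was 9.70 and 7.99 FPKM in pab2Δ and 19.6 and 23.3 FPKM in clr4-1 (log2 difference -1.45, SE 0.11, adjusted p = 0.000123), with WT at 9.34 and 9.48 FPKM, so the clr4-1 libraries held more clr4 RNA than both other strains. Of the genes beside pab2 in the annotation, rix7 was slightly lower (log2 difference -0.49, SE 0.040, adjusted p = 0.000146), pub3 slightly higher (log2 difference 0.43, SE 0.037, adjusted p = 0.000184), and coa1 did not pass the test (log2 difference 0.10, adjusted p = 0.439), though it was called as deposited (0.0422) and with equal sums (0.0085). pac3 was called lower (log2 difference -0.50, SE 0.16, adjusted p = 0.0323), but not without either pab2Δ library (adjusted p = 0.124 and 0.0884) or without clr4-1 replicate 2 (0.123). Beside clr4, meu6 (SJAG_04575), described as a meiotic chromosome segregation protein, was far higher in pab2Δ, at 49.1 and 47.3 FPKM in pab2Δ and 7.79 and 8.01 FPKM in clr4-1 (log2 difference 2.20, SE 0.048, adjusted p = 1.16e-06). The other neighbours, rxt2, ubc4 and rpn3, lay at log2 differences of -0.23, 0.01 and 0.04. Of these only rxt2 passed the test (adjusted p = 0.0271), and not without either pab2Δ library (0.0753 and 0.129) or clr4-1 replicate 1 (0.128). ubc4 and rpn3 were called higher as deposited and with equal sums, where all genes shift upwards.

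As deposited, the median gene was 0.28 higher in pab2Δ on the log2 scale, and centring removed this shift. Of the 4901 genes, 1668 (34.0%) were then called higher and 1716 (35.0%) lower in pab2Δ, together 3384 genes (69.0%). On the scale as deposited the numbers were 3004 and 845, and higher genes made up 78.0% of these calls, against 49.3% after centring. With libraries brought to equal sums of FPKM, a choice made after seeing the data, 3797 were higher and 498 lower. A difference of at least 2-fold was found for 273 called genes (5.57%) in the higher and 193 (3.94%) in the lower direction. As deposited these were 423 and 97 genes, which included all 273 of the former and 97 of the 193 latter.

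Most of the differences were small but reproducible. The median absolute difference between strains was 0.29, against 0.05 between the 2 pab2Δ libraries and 0.06 between the 2 clr4-1 libraries. Only 45 genes were at least 2-fold apart between the pab2Δ libraries and 43 between the clr4-1 libraries. The sum of all FPKM was 920550.4 and 910209 in the pab2Δ libraries, 1080821 and 1063579.7 in the clr4-1 libraries and 1068001 and 1047611 in WT. Read numbers cannot be had from FPKM, so depth and counting error are unknown for every library.

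**Figure D1:**
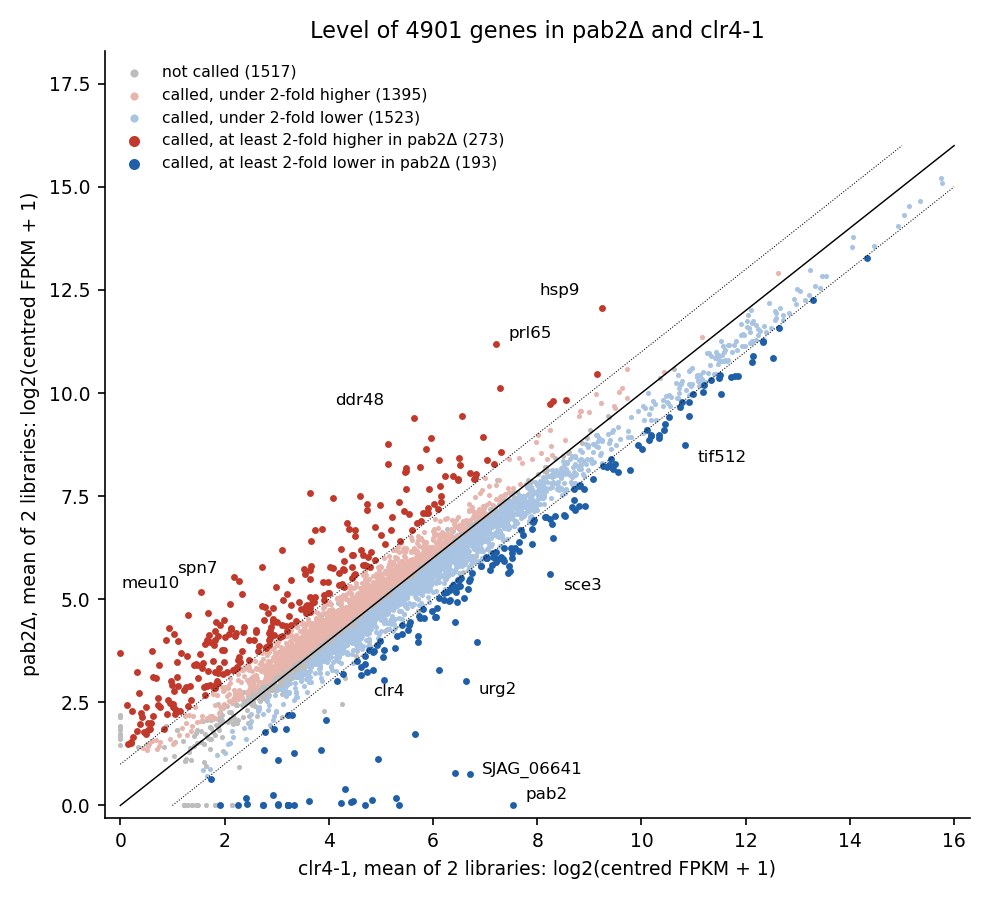
Mean level of each of the 4901 genes in clr4-1 (x axis) and pab2Δ (y axis), both on the log2(centred FPKM + 1) scale, with equality as the solid line and 2-fold as the dotted lines. The 273 genes called at least 2-fold higher in pab2Δ lie mostly at low and middle levels, and most of the abundant genes, at the upper right, lie below the line of equality.

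The largest decreases in pab2Δ relative to clr4-1, pab2 apart, were in a chromodomain gene, the transposon genes, loci without a description and a tRNA gene. The 6 genes described as transposon fragments or retrotransposon gag proteins were all called lower, each by more than 2-fold, with a median log2 difference of -4.35, against 0.0030 for all genes tested. SJAG_03766, a transposon fragment, was at 0.385 and 1.33 FPKM in pab2Δ and 73.5 and 81.2 FPKM in clr4-1 (log2 difference -5.65, SE 0.23, adjusted p = 7.89e-06). SJAG_03765, the neighbouring fragment, was at 2.49 and 2.59 FPKM in pab2Δ and 48.4 and 41.5 FPKM in clr4-1 (log2 difference -3.94, SE 0.20, adjusted p = 1.86e-05). Both clr4-1 libraries thus lay far above both pab2Δ libraries. WT was lower still, at 1.23 and 0.491 FPKM in SJAG_03765 and 0.0996 and 0.142 FPKM in SJAG_03766. SJAG_05118, described as a zinc knuckle and gag polyprotein protease, was at 0.141 and 0.139 FPKM in pab2Δ and 35.7 and 33.3 FPKM in clr4-1 (log2 difference -5.12, SE 0.12, adjusted p = 1.55e-06). SJAG_05143, with a gag domain, reached 18.26 and 19.0 FPKM in clr4-1 and stayed below 1 FPKM in pab2Δ (log2 difference -4.35), and so did the fragment SJAG_06637, with 20.7 and 17.6 FPKM in clr4-1 (log2 difference -4.35). SJAG_16458, which lies next to SJAG_03766, was at 0.276 and 0.429 FPKM in pab2Δ and 18.26 and 16.2 FPKM in clr4-1 (log2 difference -3.92, SE 0.13, adjusted p = 3.45e-06). Against WT, pab2Δ was higher by 0.83 in SJAG_03765 and 0.61 in SJAG_03766 on the centred log2 scale. It differed by -0.54 in SJAG_16458, -0.06 in SJAG_06637, -0.05 in SJAG_05118 and 0.0032 in SJAG_05143. Reads of repeated elements can fit several copies, and how they were assigned is not given in the sources used here, so the values of single copies are uncertain.

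A chromodomain gene and a pair of RecQ type helicase genes without a gene name were likewise high in clr4-1 and low in pab2Δ. SJAG_06641, annotated with a chromodomain, the fold that binds methylated histones in other proteins, was at 1.73 and 0.156 FPKM in pab2Δ and 88.0 and 99.2 FPKM in clr4-1 (log2 difference -5.93, SE 0.36, adjusted p = 4.32e-05). The pab2Δ libraries differed from each other for this gene, and both stayed far below clr4-1. The RecQ type DNA helicases SJAG_05173 and SJAG_05105 were at 6.73 and 6.25 FPKM and at 3.88 and 3.99 FPKM in clr4-1, in this order, and under 1 FPKM in pab2Δ and WT (log2 differences -2.99 and -2.24, adjusted p = 1.78e-05 and 8.98e-05). A further RecQ type helicase, SJAG_05353, fell below the minimum mean, at 1.29 and 1.08 FPKM in clr4-1 against only 0.0546 and 0.0675 FPKM in pab2Δ. Of the 9 genes of the list of RecQ and chromodomain families that were tested, these 3 were at least 2-fold lower, and no other was 2-fold apart. The heterochromatin proteins chp1 and swi6 were lower by little (log2 differences -0.36 and -0.15), the RecQ helicases rqh1 and hrq1 were called higher (0.37 and 0.30), and chp2 and rmi1 did not pass the test (-0.05 and 0.15). As deposited, 5 genes of the list were called higher and 3 lower. Among loci without a description, SJAG_04448 was at 0.183 and 0.0226 FPKM in pab2Δ and 23.3 and 26.7 FPKM in clr4-1 (log2 difference -4.71, SE 0.15, adjusted p = 3.42e-06). SJAG_06608 was listed at 0 in both pab2Δ libraries and was at 32.6 and 40.2 FPKM in clr4-1 (adjusted p = 0.000233). SJAG_06639 and SJAG_00013, also without a description, had log2 differences of -4.17 and -3.51. SJAG_05161 was listed at 0 in both pab2Δ libraries and reached 8.62 and 7.78 FPKM in clr4-1, and SJAG_05352, likewise at 0, reached 6.13 and 6.83 FPKM.

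The uracil-regulated genes were an exception among the largest decreases, since they were abundant in WT and low in both mutants. In S. pombe the urg genes answer to uracil in the medium. urg2 (SJAG_04709), an uracil phosphoribosyltransferase, was at 8.77 and 6.96 FPKM in pab2Δ and 83.9 and 94.2 FPKM in clr4-1 (log2 difference -3.62, SE 0.11, adjusted p = 2.67e-06), with WT at 504 and 509.6 FPKM. urg1 (SJAG_04711), described as a GTP cyclohydrolase, was at 9.90 and 9.28 FPKM in pab2Δ and 63.4 and 61.2 FPKM in clr4-1 (log2 difference -2.85, SE 0.039, adjusted p = 4.78e-07). urg3 (SJAG_04710) was at 14.4 and 14.7 FPKM in pab2Δ and 33.2 and 35.1 FPKM in clr4-1 (log2 difference -1.45, SE 0.040, adjusted p = 2.23e-06). The order was thus WT, clr4-1 and pab2Δ from high to low for all 3 genes, with no overlap between libraries of different strains. Of the 15 genes of uracil and purine breakdown, 8 were called lower, 5 of them by at least 2-fold, and 2 higher. Among all genes tested these shares were 35.0%, 3.94% and 34.0%, in this order. The median of the 15 genes was -0.20, 0.07 as deposited and 0.29 with equal sums. Under these 2 scalings 7 and 9 genes were called higher, and 6 lower under each. dal2, the predicted allantoicase, was lower (log2 difference -1.26, SE 0.033, adjusted p = 1.88e-06) and xan1, described as a sulfonate dioxygenase, was higher (log2 difference 1.21, SE 0.094, adjusted p = 0.000117), at 14.6 and 15.5 FPKM in pab2Δ and 5.38 and 4.32 FPKM in clr4-1.

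Turning to the other direction, the largest difference was in prl65 (SJAG_03253), a gene described as encoding a protein of the tudor domain superfamily, which was at 2703 and 2477 FPKM in pab2Δ and 128 and 139.7 FPKM in clr4-1 (log2 difference 3.98, SE 0.070, adjusted p = 6.49e-07). WT lay between them at 214 and 233 FPKM, closer to clr4-1. SJAG_00788, a gene without known relatives, was at 209.6 and 208 FPKM in pab2Δ and 12.6 and 8.47 FPKM in clr4-1 (log2 difference 3.93, SE 0.20, adjusted p = 2.09e-05). ddr48 (SJAG_02442), which bears the name of a DNA damage responsive gene of Saccharomyces cerevisiae, was at 735 and 763 FPKM in pab2Δ and 44.9 and 43.8 FPKM in clr4-1 (log2 difference 3.76, SE 0.049, adjusted p = 4.78e-07). In all 3 genes both pab2Δ libraries lay far above every clr4-1 and WT library. pdc202 (SJAG_03743), a predicted pyruvate decarboxylase, the enzyme that commits pyruvate to ethanol, was at 475 and 482 FPKM in pab2Δ and 31.2 and 30.3 FPKM in clr4-1 (log2 difference 3.63, SE 0.029, adjusted p = 1.81e-07). ght6 (SJAG_03606), a glucose and fructose symporter of the plasma membrane, was at 191 and 194 FPKM in pab2Δ and 14.2 and 14.8 FPKM in clr4-1 (log2 difference 3.37, SE 0.049, adjusted p = 4.78e-07). WT was at 30.97 and 30.5 FPKM for pdc202, level with clr4-1, and at 20.8 and 19.2 FPKM for ght6, slightly above clr4-1. SJAG_00587, an RTA-like protein, SJAG_01850, a short chain dehydrogenase, and SJAG_02961, an epimerase or dehydratase, had log2 differences of 3.38, 3.36 and 3.15. SJAG_00587 and SJAG_02961 were below 1 FPKM in clr4-1 and WT.

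**Figure D2:**
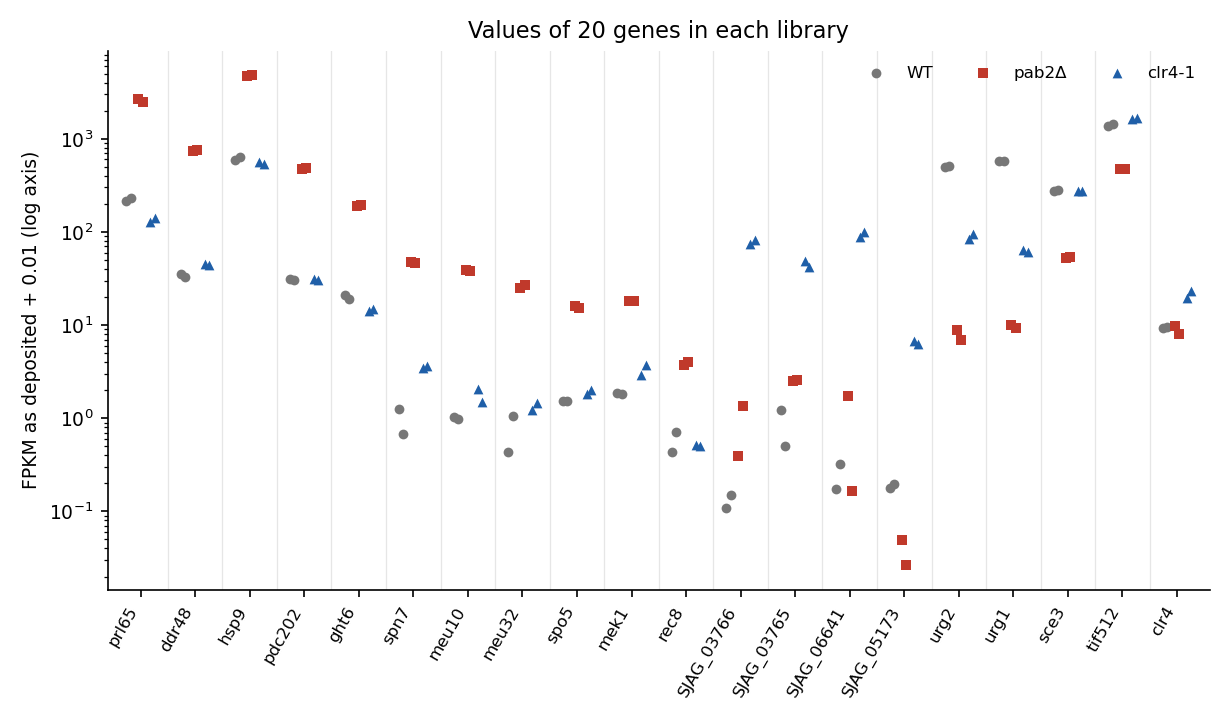
FPKM as deposited in each of the 6 libraries for 20 genes on a log axis, with 0.01 added to each value, and 1 point per library. The 11 genes from prl65 to rec8 have both pab2Δ points above all clr4-1 and WT points, and the transposon fragments SJAG_03766 and SJAG_03765 have both clr4-1 points above all others.

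Genes of meiosis and spore formation were far more often higher than lower in pab2Δ. Of 55 genes of spore formation and meiotic division, 34 were called higher (34.0% of all genes tested were), 14 of them by at least 2-fold, and 6 lower, none by 2-fold. Of 57 mug genes, a series named for increased expression in meiosis of S. pombe, 39 were higher, 12 by at least 2-fold, and 2 lower. Of 27 genes of meiotic recombination and the chromosome axis, 15 were higher, 7 by at least 2-fold, and 3 lower. Among all genes tested, 5.57% were at least 2-fold higher and 35.0% were called lower. The medians of these lists were 0.45, 0.46 and 0.39. The scalings as deposited and with equal sums of FPKM move all genes upwards and could only raise them.

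meu10 (SJAG_03483), which takes part in building the ascospore wall in S. pombe, was at 38.998 and 38.2 FPKM in pab2Δ and 2.05 and 1.47 FPKM in clr4-1 (log2 difference 3.62, SE 0.12, adjusted p = 3.52e-06). meu32 (SJAG_00377), a sequence orphan, was at 24.9 and 27.1 FPKM in pab2Δ and 1.21 and 1.44 FPKM in clr4-1 (log2 difference 3.32, SE 0.19, adjusted p = 2.96e-05). spo5 (SJAG_04271), which encodes a meiotic RNA-binding protein, was at 16.03 and 15.4 FPKM in pab2Δ and 1.83 and 1.98 FPKM in clr4-1 (log2 difference 2.29, SE 0.085, adjusted p = 5.72e-06). In these genes clr4-1 lay above WT by 0.51, 0.51 and 0.26 on the centred log2 scale, in this order. The pab2Δ libraries lay above WT by 4.13, 3.82 and 2.55 and did not overlap with the others. crp79 (SJAG_03283), which encodes a poly(A)-binding protein, was at 31.2 and 31.6 FPKM in pab2Δ and 2.54 and 3.47 FPKM in clr4-1 (log2 difference 2.78, SE 0.13, adjusted p = 1.38e-05). mug108 (SJAG_04764), a sequence orphan, was at 111 and 113 FPKM in pab2Δ and 10.7 and 11.6 FPKM in clr4-1 (log2 difference 2.94, SE 0.079, adjusted p = 2.02e-06). In both of these genes the pab2Δ libraries again lay above all others. rem1, a meiotic cyclin, was at 4.48 and 5.23 FPKM in pab2Δ and 0.506 and 0.665 FPKM in clr4-1 (log2 difference 1.71, SE 0.16, adjusted p = 0.00028). meu14, a sporulation gene, crs1, another meiotic cyclin, and mug4 were higher by 2.07, 2.05 and 2.60 on the log2 scale. Among the few lower members, the largest difference was in spo20, a Sec14 family protein (log2 difference -0.68, SE 0.023, adjusted p = 4.14e-06).

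On the chromosome axis, hop1 (SJAG_02652), a linear element protein, was at 10.8 and 11.4 FPKM in pab2Δ and 0.876 and 1.17 FPKM in clr4-1 (log2 difference 2.38, SE 0.13, adjusted p = 2.55e-05). sgo1 (SJAG_03989), the shugoshin that protects meiotic cohesin, was at 10.7 and 10.5 FPKM in pab2Δ and 1.56 and 1.43 FPKM in clr4-1 (log2 difference 2.00, SE 0.11, adjusted p = 2.9e-05). mek1 (SJAG_03438), a meiotic checkpoint kinase, was at 17.9 and 18.0 FPKM in pab2Δ and 2.87 and 3.71 FPKM in clr4-1 (log2 difference 1.90, SE 0.11, adjusted p = 3.55e-05). For all 3 genes the clr4-1 and WT libraries were below both pab2Δ libraries. rec8 (SJAG_03926), the meiotic cohesin subunit, was at 3.75 and 3.99 FPKM in pab2Δ and 0.507 and 0.498 FPKM in clr4-1 (log2 difference 1.53, SE 0.16, adjusted p = 0.000465), below 1 FPKM in both clr4-1 libraries. rec11 (log2 difference 1.26), rec10 (1.06) and rec24 (1.10) followed. rec12, which encodes the enzyme that makes the meiotic DNA breaks, and dmc1, the meiotic recombinase, did not pass the test, at -0.17 and 0.23, and dmc1 was called as deposited (adjusted p = 0.00402) and with equal sums (0.000547). dlc1, a dynein light chain that serves both growing and meiotic cells, showed the largest of the 3 decreases (log2 difference -1.11, SE 0.077, adjusted p = 7.04e-05).

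The study followed spo5, rec8, mei4 and ssm4 by RT-qPCR as putative meiotic genes and reported each of them higher in pab2Δ than in WT. Its reference was WT, whereas the differences here are between pab2Δ and clr4-1. Beside the values of spo5 and rec8 above, mei4, a meiotic forkhead transcription factor, was at 7.13 and 7.07 FPKM in pab2Δ and 2.72 and 3.06 FPKM in clr4-1 (log2 difference 0.83, SE 0.12, adjusted p = 0.00152). ssm4 (SJAG_00140), a dynactin subunit of the p150-Glued family, was at 9.16 and 8.64 FPKM in pab2Δ and 7.73 and 7.20 FPKM in clr4-1 and did not pass the test (log2 difference -0.03, adjusted p = 0.706). act1, the actin gene to which the study scaled its RT-qPCR, was at 368 and 376 FPKM in pab2Δ and 357 and 359.5 FPKM in clr4-1, a log2 difference of -0.23 after centring, 0.06 as deposited and 0.28 with equal sums.

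All 7 septin genes, which encode filament proteins of the division site and the forespore membrane, had positive differences, and 6 were called. spn7 (SJAG_04470) was at 47.2 and 46.7 FPKM in pab2Δ and 3.43 and 3.60 FPKM in clr4-1 (log2 difference 3.15, SE 0.15, adjusted p = 1.31e-05). spn5 (SJAG_01769) was at 20.6 and 21.8 FPKM in pab2Δ and 3.40 and 4.17 FPKM in clr4-1 (log2 difference 1.97, SE 0.094, adjusted p = 1.46e-05). No library of another strain reached the pab2Δ levels of spn7 or spn5. The others were smaller, at 0.70 for spn1, 0.59 for spn4 and 0.39 for spn2, and spn3 did not pass the test (0.09, adjusted p = 0.0722), though it was called as deposited and with equal sums. spn6, at 0.31, lost its call without the second pab2Δ column (adjusted p = 0.128) or without clr4-1 replicate 1 (0.128).

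Genes of mating and pheromone signalling were moderately higher in pab2Δ. Of 27 genes, 18 were called higher and 3 lower, against 34.0% and 35.0% of all genes tested, and the median was 0.36. Only 1 gene was at least 2-fold apart in each direction, against 5.57% and 3.94% of all genes tested. The 1 higher gene was ste11 (SJAG_04009), the transcription factor that opens the mating and meiosis programme in S. pombe, at 3.77 and 4.27 FPKM in pab2Δ and 1.12 and 0.842 FPKM in clr4-1 (log2 difference 1.15, SE 0.14, adjusted p = 0.000734). WT was at 4.03 and 3.38 FPKM, so pab2Δ was near WT and clr4-1 was low. mam4, an enzyme that modifies the M-factor pheromone, was lower in pab2Δ (log2 difference -1.03, SE 0.039, adjusted p = 6.41e-06) and ras1, a GTPase of the pathway, as well (log2 difference -0.64, SE 0.046, adjusted p = 8.29e-05). The 3 genes of the mating-type locus were all higher, SJAG_05153, a mating-type transcription factor, at 71.4 and 63.1 FPKM in pab2Δ and 27.2 and 25.01 FPKM in clr4-1 (log2 difference 1.05, SE 0.079, adjusted p = 0.000105), and SJAG_05154 and SJAG_01113 by 0.72 and 0.25 on the log2 scale. The call of SJAG_05154 was lost without either pab2Δ library (adjusted p = 0.0989 and 0.0623). That of SJAG_01113 was lost without the first pab2Δ column (0.089) or clr4-1 replicate 1 (0.0866).

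Genes of translation were lower in pab2Δ almost as a class, and abundant genes in general were mostly lower too. Of the 1225 genes in the highest of 4 equal groups by mean level, 832 were called lower and 206 higher, with a median of -0.30. Without the cytosolic ribosomal protein list the median of that group was -0.25. Of 141 genes in the list of cytosolic ribosomal proteins, 138 were called lower (35.0% of all genes tested were), 26 of them by at least 2-fold, and the median was -0.76, -0.47 as deposited and -0.24 with equal sums. The 3 others were ubi4, rpp1 and rpp21, which the name pattern of the list had caught. None of these encodes a ribosomal protein by its description, since ubi4 is a ubiquitin gene and the others belong to RNase P or RNase MRP. ubi4 was higher, at 280.3 and 275 FPKM in pab2Δ and 67.0 and 67.5 FPKM in clr4-1 (log2 difference 1.74, SE 0.027, adjusted p = 4.85e-07). rpp203 (SJAG_02871), an acidic protein of the ribosomal stalk, was at 2023 and 2049 FPKM in pab2Δ and 5301 and 5315 FPKM in clr4-1 (log2 difference -1.67, SE 0.015, adjusted p = 2.09e-07). rpl1b (SJAG_03122) was at 316 and 307 FPKM in pab2Δ and 792 and 795 FPKM in clr4-1 (log2 difference -1.63, SE 0.023, adjusted p = 4.78e-07). These genes filled 59.8% and 59.2% of the FPKM sum in the pab2Δ libraries, 68.1% and 67.6% in clr4-1 and 66.9% and 66.2% in WT, so a scaling to equal sums is set largely by them.

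The lists below stand beside 34.0% of all genes tested called higher and 35.0% called lower. Of 37 translation initiation and elongation factors, 36 were called lower and none higher, with a median of -0.49, -0.20 as deposited and 0.03 with equal sums. With equal sums 18 were higher and 13 lower. sce3 (SJAG_03433), a predicted initiation factor, was at 52.3 and 54.2 FPKM in pab2Δ and 273 and 277 FPKM in clr4-1 (log2 difference -2.63, SE 0.029, adjusted p = 4.17e-07). tif512 (SJAG_02812), one of a pair of eIF5A genes, was at 469 and 474 FPKM in pab2Δ and 1646 and 1661 FPKM in clr4-1 (log2 difference -2.10, SE 0.023, adjusted p = 4.17e-07). tif51 (SJAG_02189), the other, was at 497 and 531 FPKM in pab2Δ and 986 and 1062 FPKM in clr4-1 (log2 difference -1.28, SE 0.047, adjusted p = 5.72e-06). For sce3 the clr4-1 libraries were at the level of WT, 277 and 282 FPKM, and the pab2Δ libraries were far below it. Of 92 genes in the list of ribosome biogenesis, 74 were lower and 6 higher, with a median of -0.29, -0.0019 as deposited and 0.22 with equal sums. As deposited 33 were lower and 32 higher. The largest increases after centring were in rrp2, described as a DNA helicase (0.47), and the histidine kinases mak3 (0.40) and mak1 (0.38). By description these do not belong to ribosome biogenesis. gar2, which encodes a nucleolar protein for rRNA processing, stood out (log2 difference -1.55, SE 0.026, adjusted p = 5.75e-07), at 157 and 158 FPKM in pab2Δ and 385 and 376 FPKM in clr4-1. Mitochondrial ribosomal proteins divided evenly, with 19 higher, 18 lower and 34 not called of 71. Their median was -0.01, 0.26 as deposited, where 41 were higher and 7 lower.

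Glycolysis genes were mostly lower in pab2Δ, with pdc202 as the exception. Of 11 genes of glycolysis and fermentation, 9 were called lower, with a median of -0.68, -0.39 as deposited and -0.16 with equal sums. gpm1 (SJAG_02009), phosphoglycerate mutase, was at 1101 and 1116 FPKM in pab2Δ and 2669.8 and 2698 FPKM in clr4-1 (log2 difference -1.56, SE 0.018, adjusted p = 4.34e-07). hxk1, a hexokinase, was at 24.2 and 26.3 FPKM in pab2Δ and 60.6 and 58.9 FPKM in clr4-1 (log2 difference -1.49, SE 0.046, adjusted p = 3e-06) and tpi1, triosephosphate isomerase, at 1532 and 1556 FPKM in pab2Δ and 2631 and 2627 FPKM in clr4-1 (log2 difference -1.05, SE 0.017, adjusted p = 4.88e-07). In the pyruvate dehydrogenase complex, which feeds the citric acid cycle, pda1 was lower (log2 difference -1.18, SE 0.026, adjusted p = 1.16e-06). Genes of the respiratory chain went in the opposite direction, with 26 of 49 called higher, 5 lower and a median of 0.27. The shares over all genes tested were 34.0% higher and 35.0% lower. qcr7 (SJAG_03490), a subunit of the cytochrome bc1 complex, was at 39.9 and 35.3 FPKM in pab2Δ and 4.69 and 2.87 FPKM in clr4-1 (log2 difference 2.78, SE 0.27, adjusted p = 0.000317), and cox9, a cytochrome c oxidase subunit, at 136.1 and 145 FPKM in pab2Δ and 29.9 and 35.7 FPKM in clr4-1 (log2 difference 1.79, SE 0.086, adjusted p = 1.53e-05). S. japonicus does not depend on respiration for growth.

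All 11 histone genes were called higher in pab2Δ, with a median of 0.73, 1.02 as deposited and 1.25 with equal sums. cnp1 (SJAG_00307), the histone H3 of centromeres, was the 1 gene at least 2-fold apart, at 286 and 288 FPKM in pab2Δ and 105 and 99.7 FPKM in clr4-1 (log2 difference 1.19, SE 0.032, adjusted p = 2.02e-06). hta1, a histone H2A gene, was at 561 and 557 FPKM in pab2Δ and 237 and 232 FPKM in clr4-1 (log2 difference 0.96, SE 0.029, adjusted p = 2.94e-06). hhf1, a histone H4 gene, was at 1719 and 1674 FPKM in pab2Δ and 787 and 749.5 FPKM in clr4-1 (log2 difference 0.85, SE 0.029, adjusted p = 4.42e-06). In WT, cnp1 was at 89.4 and 87.0, hta1 at 278 and 265 and hhf1 at 852 and 873 FPKM, close to clr4-1 and far from pab2Δ. Copies of H3 and of H4 genes encode near-identical proteins, so their single values are uncertain.

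**Figure D3:**
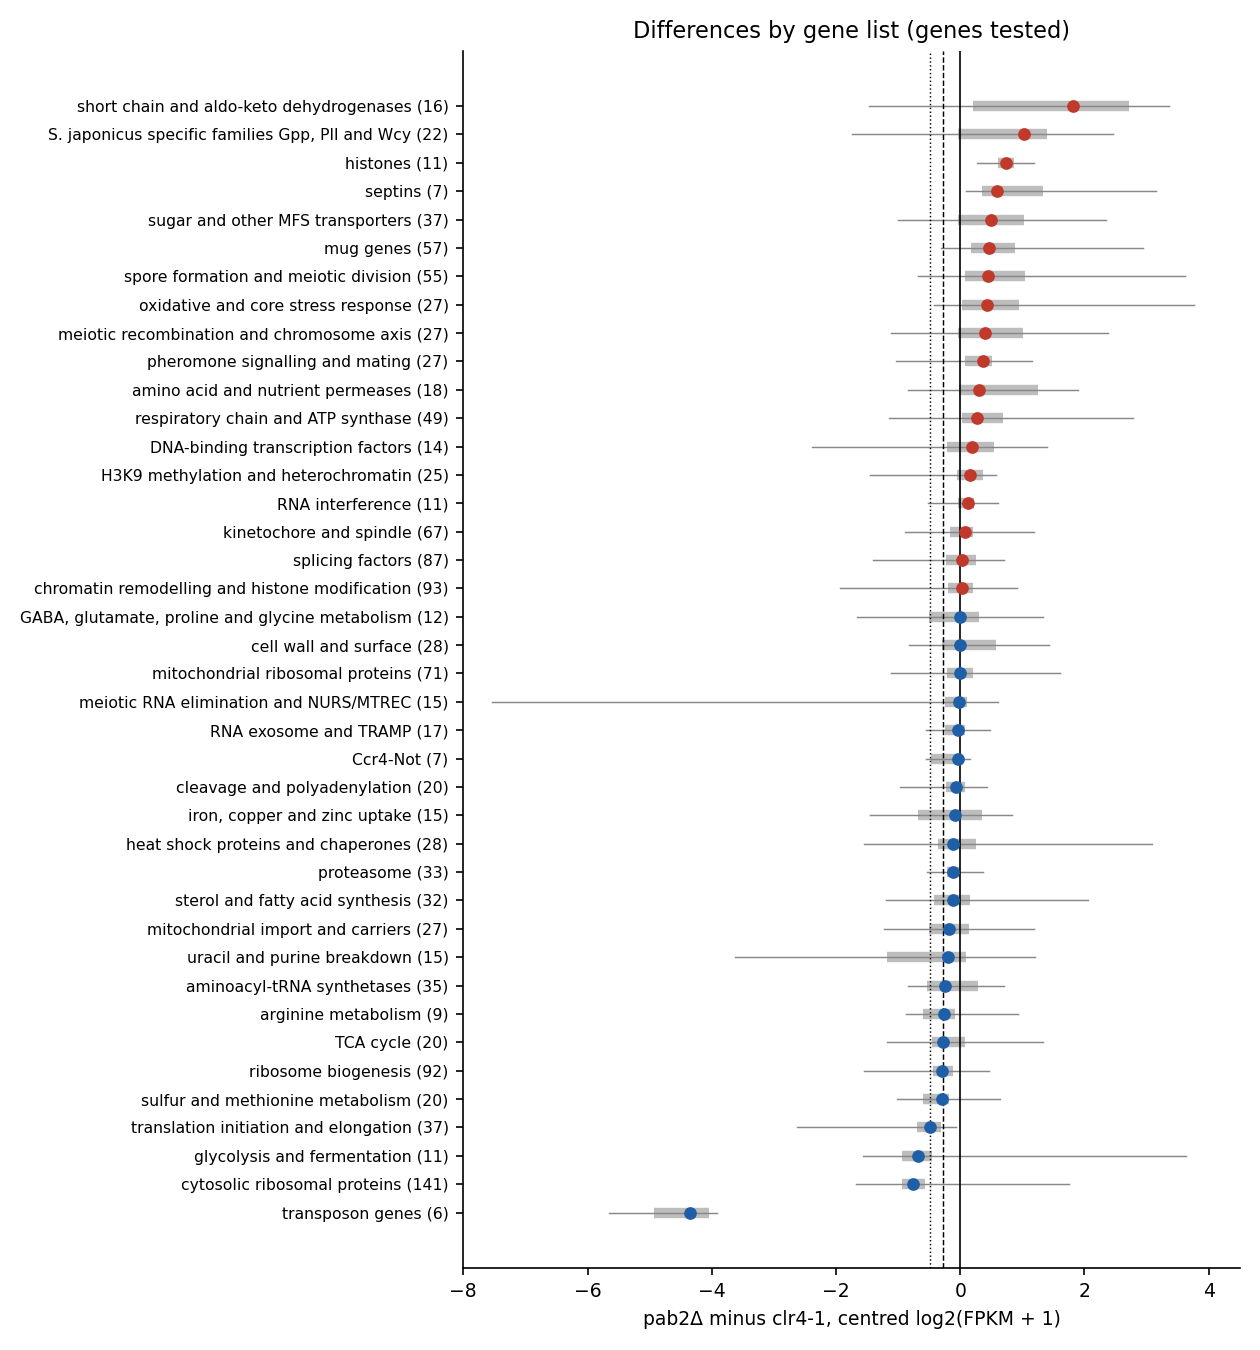
Difference between pab2Δ and clr4-1 for each gene list, with the number of genes tested in brackets. Points are medians (red above 0, blue below), thick bars span the interquartile range of the genes and thin lines all of them, the solid line is 0 on the centred scale, and the dashed and dotted lines mark, approximately, where 0 lies as deposited and with equal sums of FPKM. The medians of transposon genes, cytosolic ribosomal proteins and glycolysis lie left of all 3 lines. Those of histones, septins, spore formation, mug genes and meiotic recombination lie right of them.

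Other lists of general cell functions were split between the directions after centring, and this balance depended on the scaling. The shares over all genes tested were 34.0% higher and 35.0% lower after centring. Of 87 splicing factors, 32 were called higher and 26 lower, and of 93 genes of chromatin remodelling and histone modification 30 were higher and 28 lower. As deposited these became 56 higher and 12 lower splicing factors and 63 and 8 chromatin genes, and with equal sums 71 and 5, and 77 and 5. Kinetochore and spindle genes had 24 higher and 14 lower of 67, and cell wall genes 13 higher and 11 lower of 28, against 42 and 4, and 19 and 5, as deposited. Of 33 proteasome genes, 18 were lower and 3 higher, with a median of -0.12, 0.17 as deposited, where 24 were higher and 3 lower. Of 35 aminoacyl-tRNA synthetases, 22 were lower and 11 higher, with a median of -0.24, 0.05 as deposited, where 16 were higher and 13 lower.

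Sulfur, methionine and arginine genes were mostly lower in pab2Δ after centring, where 34.0% of all genes tested were called higher and 35.0% lower. Of 20 genes of sulfur and methionine metabolism, 16 were called lower and 2 higher, with a median of -0.29, -0.01 as deposited and 0.22 with equal sums. With equal sums 12 were higher and 5 lower. After centring, 1 of the 2 higher members was str2, described as a siderophore-iron transporter. Of 9 arginine genes, 6 were lower and 2 higher (median -0.26, 0.02 as deposited and 0.25 with equal sums), against 3 and 3 as deposited and 2 and 6 with equal sums. arg4 was lower (log2 difference -0.88, SE 0.039, adjusted p = 1.18e-05) and arg3, ornithine carbamoyltransferase, higher (log2 difference 0.93, SE 0.043, adjusted p = 1.31e-05), at 31.6 and 33.7 FPKM in pab2Δ and 13.7 and 13.5 FPKM in clr4-1. WT was above both strains for arg3, at 88.0 and 85.3 FPKM. Of 12 genes of GABA, glutamate, proline and glycine metabolism, 5 were called higher and 5 lower, with a median near 0 (-0.00038). Among them were the enzymes that fix ammonium. gdh1, glutamate dehydrogenase, was at 58.1 and 62.8 FPKM in pab2Δ and 159 and 157 FPKM in clr4-1 (log2 difference -1.66, SE 0.044, adjusted p = 2.01e-06) and gln1, glutamine synthetase, at 220.2 and 226 FPKM in pab2Δ and 428 and 435 FPKM in clr4-1 (log2 difference -1.24, SE 0.023, adjusted p = 7.86e-07). put1, proline dehydrogenase, was higher, at 2.26 and 1.97 FPKM in pab2Δ and 0.126 and 0.151 FPKM in clr4-1 (log2 difference 1.34, SE 0.20, adjusted p = 0.00175).

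Among 18 amino acid and nutrient permeases, 12 were called higher, 5 by at least 2-fold, and 2 lower. Over all genes tested, 34.0% were called higher, 5.57% by at least 2-fold, and 35.0% lower. dip5 (SJAG_02955) was at 6.54 and 6.46 FPKM in pab2Δ and 0.964 and 0.903 FPKM in clr4-1 (log2 difference 1.76, SE 0.11, adjusted p = 5.05e-05) and SJAG_01096, an amino acid or polyamine transporter, at 5.36 and 5.97 FPKM in pab2Δ and 0.632 and 0.542 FPKM in clr4-1 (log2 difference 1.89, SE 0.15, adjusted p = 0.000131). Among 37 sugar and other MFS transporters, 22 were higher, 10 by at least 2-fold, and 7 lower, with ght7, a hexose transporter, at 27.3 and 26.6 FPKM in pab2Δ and 5.56 and 5.51 FPKM in clr4-1 (log2 difference 1.83, SE 0.054, adjusted p = 2.7e-06). zrt1, the zinc transporter, was lower, at 126 and 124 FPKM in pab2Δ and 286 and 277 FPKM in clr4-1 (log2 difference -1.45, SE 0.024, adjusted p = 5.65e-07), and both mutants were below WT, which was at 528 and 528 FPKM. nmt1, a thiamine synthesis gene that thiamine shuts off in S. pombe, was at 15.9 and 17.6 FPKM in pab2Δ and 0.865 and 0.677 FPKM in clr4-1 (log2 difference 3.13, SE 0.15, adjusted p = 1.53e-05).

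Stress and detoxification genes were higher in pab2Δ. Of 27 genes of the oxidative and core stress response, 19 were called higher, 6 by at least 2-fold, and 4 lower, and the median was 0.44. Over all genes tested, 34.0% were called higher, 5.57% by at least 2-fold, and 35.0% lower. hsp9 (SJAG_00223), a small heat shock protein, was at 4682 and 4810.3 FPKM in pab2Δ and 568 and 534 FPKM in clr4-1 (log2 difference 2.82, SE 0.042, adjusted p = 4.78e-07). gst3 (SJAG_05181), a glutathione S-transferase, was at 201.5 and 197 FPKM in pab2Δ and 20.5 and 21.4 FPKM in clr4-1 (log2 difference 2.91, SE 0.042, adjusted p = 4.78e-07). ntp1, trehalase, and tps1, trehalose phosphate synthase, were higher by 1.63 and 0.92 on the log2 scale. Of 28 chaperones, 9 were higher and 14 lower, but 15 were higher and 8 lower as deposited and 24 and 1 with equal sums. hsp104 was at 59.5 and 60.7 FPKM in pab2Δ and 24.3 and 23.9 FPKM in clr4-1 (log2 difference 1.00, SE 0.034, adjusted p = 4.23e-06) and mge1, a mitochondrial chaperone, was at 82.2 and 96.5 FPKM in pab2Δ and 219 and 213 FPKM in clr4-1 (log2 difference -1.56, SE 0.074, adjusted p = 1.43e-05). In a list of 16 short chain dehydrogenases, aldo-keto reductases and glutathione S-transferases, 12 were higher, 9 of them by at least 2-fold, 3 were lower and the median was 1.82. In the families Gpp, Pll and Wcy, named in the annotation as specific to S. japonicus, 22 of 37 genes passed the minimum, 15 were called higher and 5 lower. wcy4 was at 23.1 and 20.7 FPKM in pab2Δ and 2.67 and 2.37 FPKM in clr4-1 (log2 difference 2.46, SE 0.11, adjusted p = 1.35e-05), and pll17 was lower at 15.3 and 17.0 FPKM in pab2Δ and 45.7 and 47.2 FPKM in clr4-1 (log2 difference -1.75, SE 0.058, adjusted p = 3.96e-06).

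Differences in the machinery of RNA elimination and heterochromatin itself were mostly small after centring. Of 15 genes of meiotic RNA elimination, 3 were called higher and 6 lower, with a median of -0.03, 0.25 as deposited and 0.47 with equal sums. As deposited 9 were higher and 2 lower. erh1, whose product binds Mmi1 in S. pombe, was the largest difference after pab2, at 39.7 and 44.5 FPKM in pab2Δ and 80.3 and 77.3 FPKM in clr4-1 (log2 difference -1.17, SE 0.061, adjusted p = 2.14e-05), and mmi1 was higher, at 78.7 and 79.4 FPKM in pab2Δ and 44.1 and 40.7 FPKM in clr4-1 (log2 difference 0.60, SE 0.050, adjusted p = 0.000154). red1 did not pass the test (log2 difference 0.12, adjusted p = 0.0526), but was called as deposited (0.39, adjusted p = 0.000354), with equal sums (adjusted p = 5.24e-05), without the intensity trend (0.0468) and without clr4-1 replicate 2 (0.0471). Of 17 genes in the exosome and TRAMP list, 4 were higher and 8 lower. Of 20 in the cleavage and polyadenylation list, 5 were higher and 9 lower, and none in either list was 2-fold apart. Among all genes tested, 34.0% were higher and 35.0% lower. By description, some members do not belong. These are the karyopherin cut15 (0.48) in the exosome list, and the iron permease fip1 (-0.97) and the protein phosphatase clp1 (0.43) in the cleavage list. The balance turned with the scaling, to 10 higher and 2 lower exosome and TRAMP genes as deposited and 15 and 0 with equal sums, and to 11 higher and 3 lower cleavage and polyadenylation genes as deposited and 17 and 2 with equal sums. Of 25 genes of H3K9 methylation and heterochromatin, 13 were higher (34.0% of all genes tested were) and 5 lower, and clr4 was the only 1 at least 2-fold apart. In this list 21 were higher and 1 lower as deposited, and 22 and 1 with equal sums. swi6, the HP1 protein that binds the mark, was at 169 and 168 FPKM in pab2Δ and 153 and 154 FPKM in clr4-1, with a log2 difference of -0.15 after centring and 0.13 as deposited. Of 11 RNA interference genes, 4 were higher and 1 lower, against 10 and 1 as deposited and 10 and 0 with equal sums. Among them rdp1, the RNA-directed RNA polymerase, was at 10.2 and 10.8 FPKM in pab2Δ and 5.18 and 5.51 FPKM in clr4-1 (log2 difference 0.61, SE 0.069, adjusted p = 0.00059).

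WT entered the fit, where it shares the estimate of spread behind every SE and adjusted p, but not the difference itself. For each of the 466 genes at least 2-fold apart, the WT mean was located between or beyond the 2 mutants on the centred log2 scale. Among the 273 genes higher in pab2Δ, WT was nearer to clr4-1 in 259, and in 134 of these it lay beyond clr4-1, away from pab2Δ. Among the 193 lower genes, WT was nearer to clr4-1 in 164. In the other 29, WT was nearer to pab2Δ. These hold the 6 transposon genes, SJAG_06641, the RecQ helicases SJAG_05173 and SJAG_05105 and clr4. Of the 14 higher genes with WT nearer to pab2Δ, ste11, pof15, an F-box protein at 200.5 and 200.1 FPKM in pab2Δ and 60.2 and 67.2 FPKM in clr4-1 with WT at 155 and 166 FPKM, and smp4, at 331 and 344 FPKM in pab2Δ and 81.0 and 83.0 FPKM in clr4-1 with WT at 229 and 184 FPKM, were low in clr4-1. For xan1, WT was above both mutants, at 36.3 and 38.5 FPKM.

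In 22 genes the mutants lay on opposite sides of WT by at least 1.5-fold each, 11 in each direction. For 10 of the 11 higher and 6 of the 11 lower genes, both WT libraries lay between all pab2Δ and all clr4-1 libraries after centring. Of the 5 other lower genes, SJAG_06608, SJAG_16128, SJAG_16133 and SJAG_16157 had 1 WT library at 0 like both pab2Δ libraries, and SJAG_16133 and SJAG_16157 had identical values. In SJAG_16170, the fifth, the WT libraries differed widely, at 33.8 and 82.0 FPKM. prl65 differed from WT by 3.32 in pab2Δ and by -0.66 in clr4-1 on the centred log2 scale. isp6 (SJAG_02432), a vacuolar serine protease, was at 363 and 372 FPKM in pab2Δ and 61.1 and 62.8 FPKM in clr4-1 (log2 difference 2.26, SE 0.028, adjusted p = 4.43e-07), with WT at 146 and 145 FPKM. SJAG_03420, an aspartic peptidase, was at 173 and 171 FPKM in pab2Δ and 29.8 and 26.2 FPKM in clr4-1, with WT at 50.5 and 48.9 FPKM. dip5, gas2, a glucanosyltransferase of the cell wall at 263 and 265 FPKM in pab2Δ and 82.8 and 77.5 FPKM in clr4-1, and SJAG_06471 shared this order. In the opposite order, gar2 had WT at 245 and 253 FPKM, above pab2Δ and below clr4-1, and so had taf12, a subunit of TFIID and SAGA, with pab2Δ at 1.09 and 1.45, WT at 3.02 and 4.12 and clr4-1 at 6.44 and 6.56 FPKM.

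**Figure D4:**
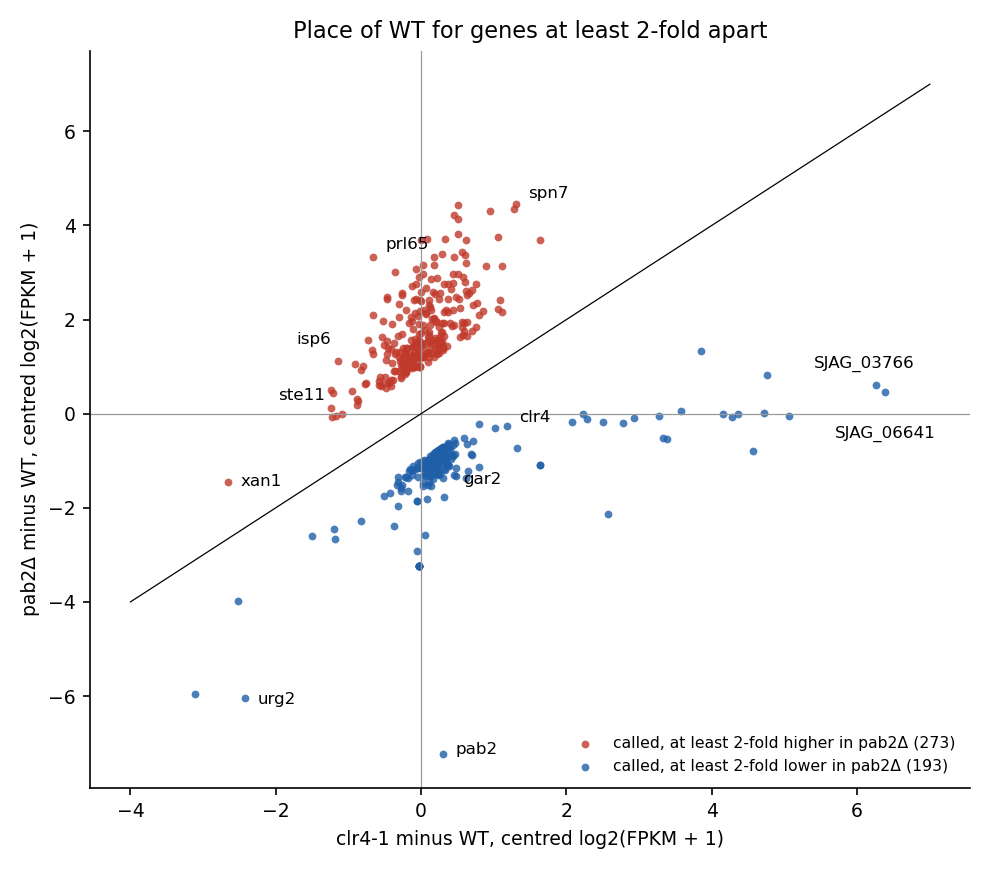
Place of WT for the 466 genes at least 2-fold apart, as the difference of clr4-1 from WT (x axis) against that of pab2Δ from WT (y axis), each on the centred log2(FPKM + 1) scale, with equality as the diagonal. Both axes share the same WT libraries. Most genes lie near x = 0, and the arm to the right, along or near y = 0, holds transposon genes and other loci far higher in clr4-1 than in WT. Of these, SJAG_03765 and SJAG_03766 were also above WT in pab2Δ, by 0.83 and 0.61.

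The calls were also counted by 3 properties of the genes, the presence of an S. pombe ortholog, the mean level and the gene length. The last 2 are not independent of the comparison, since the level sets the minimum and the weight of the added 1 FPKM, and FPKM is divided by length. Of the 704 genes with no S. pombe ortholog given in the table, 16.1% were at least 2-fold higher and 8.95% at least 2-fold lower in pab2Δ, against 3.81% and 3.10% of the 4197 genes with one. When the genes were put in 4 equal groups by mean level, of the lowest group 10.8% were at least 2-fold higher and 2.94% lower. Of the highest group, 4.82% were higher and 7.84% lower, and the median there was -0.30, -0.02 as deposited. Without the cytosolic ribosomal protein list it was -0.25. Of the shortest of 4 equal groups by gene length, 9.04% were at least 2-fold lower, against 1.39% of the longest. Shares are given with no test, since the genes are not replicates.

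**Figure D5:**
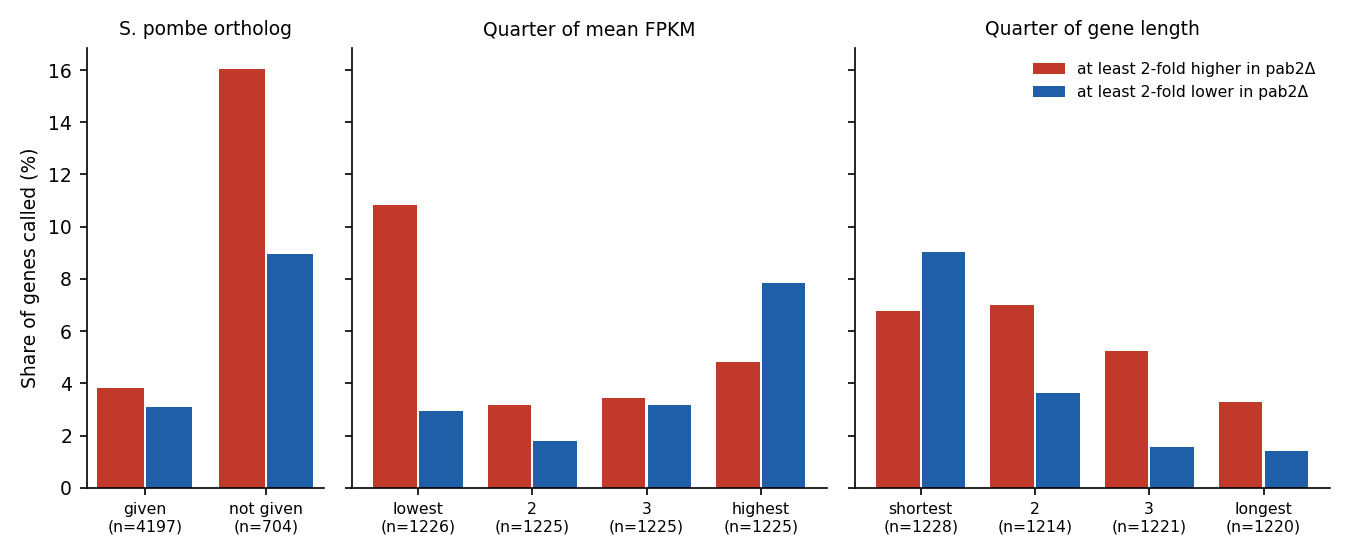
Share of genes called at least 2-fold higher (red) or lower (blue) in pab2Δ, by whether the table gives an S. pombe ortholog, by level in 4 equal groups of mean FPKM over the mutant libraries and by gene length in 4 such groups, with the number of genes under each pair of bars. Genes without an ortholog hold 16.1% higher and 8.95% lower, and lower genes are most frequent among abundant and short genes.

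Genes of like difference lay next to each other in the annotation more often than others. Of 272 genes at least 2-fold higher with a known place, 85 (31.3%) were next to another such gene, whereas 8.94% of the remaining genes were. Of 191 at least 2-fold lower, 45 (23.6%) had such a neighbour, against 5.95%. Runs of 3 or more numbered 6 for higher genes, with 19 genes, and 4 for lower genes, with 13. Among higher genes, zip3, hsp9 and ofd2 formed one run, mel1, an alpha-galactosidase by name, gal1 and SJAG_02951 another, and wcy2, SJAG_01689, wcy1 and SJAG_01690 a run of 4. Among lower genes, SJAG_16458, SJAG_03766 and SJAG_03765 stood side by side, as did urg1, urg3 and urg2, and SJAG_06639, SJAG_05143, SJAG_05352 and SJAG_05050. Overlapping or repeated genes can share reads, so values within a run are not independent.

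Genes of tRNA and rRNA need caution. Their counts stand beside 34.0% of all genes tested called higher and 35.0% called lower. Of 55 tRNA genes tested, 12 were called lower in pab2Δ and 1, SJAG_16274, higher. SJAG_16274 was listed at 0 in WT and clr4-1 and was at 12.98 and 13.4 FPKM in pab2Δ (adjusted p = 5.81e-06). Of the 186 tRNA genes above 0 in any library, 140 had every value identical with at least 1 other tRNA gene, so such copies cannot be told apart. The 12 lower calls came from 6 distinct sets of values, and 1 set held 6 of the genes. SJAG_16128 and SJAG_16060, tRNA genes among the largest decreases, were at 43.8 and 11.5 FPKM and at 35.7 and 20.5 FPKM in clr4-1, in this order, and their replicates differed widely. The call of SJAG_16128 was lost whichever of the 4 mutant libraries was left out (adjusted p = 0.0626 to 0.151) and kept without either WT library, and that of SJAG_16060 without the first pab2Δ column (0.173), clr4-1 replicate 1 (0.16) or clr4-1 replicate 2 (0.106). Of 15 rRNA genes, 6 were called lower and none higher, and the 2 pab2Δ libraries differed strongly, for example at 12.5 and 41.6 FPKM in SJAG_16170, whose call was lost without the first pab2Δ column (adjusted p = 0.144) or either clr4-1 library (0.116 and 0.15).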

How the data were processed

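RNA was sequenced from 6 libraries, 2 each of WT, pab2Δ and clr4-1. The deposited table holds a value per gene and library, taken here to be FPKM, since the authors do not write the unit in it and the values are fractional with sums that differ between libraries. The submitters' processing notes name FastQC 0.11.6, STAR 2.5.3a and StringTie 1.3.1c, and the genome build is not given in the sources used here. Fold columns of the authors' own comparisons with WT were not used. FPKM carry no read counts, so the depth is unknown. The pab2Δ columns carry no replicate number and are called first and second column after their order.

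Genes averaging 1 FPKM or more over the 4 mutant libraries were kept, each library was divided by a factor that set its median gene to a common level, and log2(FPKM + 1) was fitted for all 3 strains with limma 3.58.1 in R 4.3.3, with an intensity trend and Benjamini-Hochberg adjustment over all genes kept. A call needed an adjusted p under 0.05. The script was tested on simulated data. Tables and plots were made with Python 3.11.15, numpy 2.4.6, pandas 2.3.3 and matplotlib 3.10.9.

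Genes to be named were the 12 largest differences in each direction, the 3 largest called members of each of 45 lists in each direction (all members of lists of up to 10), pab2, clr4 and 2 neighbours on each side, the genes the study names and the 5 largest differences on opposite sides of WT, of which only some are printed. Named outside this rule, after their values were seen, were SJAG_00013, SJAG_05050, SJAG_05161, SJAG_05352, SJAG_16060, SJAG_16157, SJAG_16170, SJAG_03420, isp6, pof15, smp4, dal2, crs1, meu14, crp79, rec10, rec11, rec12, rec24, dmc1, red1, rpp1, rpp21, hhf1, tps1, ntp1, cox9 and the members of runs of neighbours (zip3, mel1, gal1, SJAG_02951, wcy2, SJAG_01689 and SJAG_01690). The members and lists were chosen with earlier results of these data known. Lists came from names and descriptions in the table, so some hold genes that share only a word or a symbol. Gene kind, length and neighbours came from RefSeq by locus tag, which matched 5213 genes, and no coordinates are printed because the build of the table is not named. Alternatives changed the scaling, pseudocount, filter, libraries fitted and intensity trend, and left out each library in turn.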

Additional observations from a re-analysis of the deposited data

How the results depend on the processing

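The scaling between libraries was the choice that mattered most. As deposited, 3004 genes were higher and 845 lower, and with equal sums of FPKM, chosen after seeing the data, 3797 and 498. At least 2-fold apart were 423 and 97 genes as deposited and 663 and 59 with equal sums, and trimmed-mean factors gave 273 and 193 as after centring. WT was nearer to clr4-1 in 398 higher and 71 lower genes as deposited and in 625 and 33 with equal sums. Among genes without an S. pombe ortholog, 185 were at least 2-fold higher and 38 lower with equal sums. These changes follow from the scaling itself, which moves all genes together. A pseudocount of 5 FPKM lowered the number of genes at least 2-fold higher to 174. The shift of the median gene was 0.29 with a pseudocount of 0.1 FPKM, 0.23 with 5 FPKM and 0.27 when genes had to average 5 FPKM. Leaving out each of the 6 libraries in turn, those of WT after seeing the data, gave 1369 to 1612 genes higher, 1509 to 1687 lower, 274 to 283 at least 2-fold higher and 170 to 203 at least 2-fold lower, with a shift of 0.27 to 0.28 without each mutant library. Without either WT library no named gene gained or lost its call. There a strain with 1 library was assumed to vary like the others. No paired analysis was possible because the pab2Δ columns carry no replicate number, and the fit with a replicate block was not run.

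Directions of called values turned only under the scalings as deposited and with equal sums, given here in that order. Uncalled differences near 0 also turned without single mutant libraries, in ssm4 (0.0084 without clr4-1 replicate 1 and 0.010 without the second pab2Δ column) and rpp1 (0.0019 without clr4-1 replicate 1 and 0.0020 without the first pab2Δ column), as did the medians of 4 lists that lay within 0.05 of 0. For genes the log2 differences became 0.23 and 0.43 in ssm4, 0.13 and 0.36 in swi6, 0.055 and 0.28 in act1, 0.051 and 0.27 in rxt2, 0.25 and 0.47 in rpp1, 0.045 and 0.22 in rec12, and 0.23 and 0.46 in chp2, while rix7, rpp21 and chp1 turned only with equal sums, at 0.016, 0.16 and 0.11. The list medians became 0.13 and 0.36 for RecQ and chromodomain genes, 0.070 and 0.29 for uracil and purine breakdown, 0.024 and 0.25 for arginine metabolism, 0.046 and 0.27 for tRNA synthetases, 0.17 and 0.39 for the proteasome and for chaperones, 0.25 and 0.47 for meiotic RNA elimination and for exosome and TRAMP, 0.20 and 0.42 for cleavage and polyadenylation, 0.24 and 0.47 for Ccr4-Not, 0.27 and 0.49 for cell wall and for GABA and glutamate genes, 0.15 and 0.31 for metal uptake, 0.26 and 0.48 for mitochondrial ribosomal proteins, 0.097 and 0.32 for mitochondrial import, 0.16 and 0.38 for sterol and fatty acid synthesis, and 0.0081 and 0.23 for the citric acid cycle. With equal sums alone, sulfur and methionine metabolism turned to 0.22, ribosome biogenesis to 0.22 and translation factors to 0.028.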
